A study of Homo sapiens with 6 samples.

Results

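The genes described here are 9 serine/arginine-rich (SR) splicing factors, SRSF1, SRSF2, SRSF3, SRSF4, SRSF5, SRSF6, SRSF7, SRSF10 and SRSF11, together with CLK1, a kinase that phosphorylates their proteins. They were taken by symbol from a list known to respond to heat stress, and all 10 of 10 were found among the 29982 gene symbols of the expression table and among the 13287 genes that passed a filter on low values (mean FPKM of at least 1 over 6 libraries). FPKM is a fragment count corrected for transcript length and for the size of the library. RNA came from OVCAR5, an established ovarian cancer cell line. There were 2 libraries of cells given the vehicle DMSO and 4 of cells given 10 µM SpiD7, a spirocyclic dimer built to modify surface cysteines covalently, namely 2 libraries at 2 h and 1 library each at 6 h and 12 h. How long the vehicle was applied is not given by the labels, and nothing in them says whether replicates were separate cultures, so that p-values may measure technical spread only. Differences are given on log2(FPKM + 0.1).

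SR proteins bind short enhancer sequences in exons and recruit the spliceosome through their arginine/serine-rich domain. The SRPK kinases phosphorylate this domain in the cytoplasm and the CLK kinases in the nucleus, and the phosphorylation state sets where SR proteins reside and whether they act. Most SRSF genes limit their own expression by including an exon with a premature stop codon, which sends the transcript to nonsense-mediated decay (NMD). CLK1 transcripts are partly held in the nucleus with introns retained, and heat stress is known to release their splicing.

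The replicate 2 libraries of DMSO and 2 h are recovered values. The deposited columns named for them were read as means of the group, and the share of the first library was subtracted. Both recovered libraries stood apart from the rest: MIR6723 took 25.0% and 21.8% of their FPKM total against 5.04% to 9.19% in the other libraries, and PECAM1, an endothelial and platelet marker, was at 10.7 and 7.74 FPKM against 0.320 to 0.961. The other defining markers of non-epithelial cells were low in all 6 libraries, with PTPRC at or below 0.0317 FPKM, CD3E listed at 0, VWF at most 0.0860, COL1A2 at most 0.0285 and DCN at most 0.126, while COL1A1 ranged from 0.596 to 2.18 and the monocyte marker CD14 from 3.10 to 9.36. The keratin genes KRT8 (1459 to 2194 FPKM), KRT18, KRT19 and KRT7 and the epithelial marker EPCAM were high throughout, while the epithelial cadherin CDH1 was at 10.4 to 19.3 FPKM and higher in both recovered libraries (19.2 and 19.3) than in the first DMSO and 2 h libraries (11.4 and 11.8). In both groups 8 of the 9 SRSF genes were lower in the recovered library than in the first, with SRSF5 as the exception. No member differed more than 2-fold between replicates (0 of 10 in DMSO and 0 of 10 at 2 h), against 13.5% and 10.9% of all genes tested.

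By the GENCODE 29 annotation of GRCh38, CLK1 lies at chr2:200853009-200864744 on the minus strand and SRSF7 at chr2:38743599-38751494 on the minus strand. SRSF3 lies at chr6:36594353-36605600 and SRSF6 at chr20:43457928-43464247, both on the plus strand. SRSF5 (chr14:69726900-69772005) and SRSF11 (chr1:70205682-70253052) are also on the plus strand, and SRSF1 (chr17:58003360-58007346), SRSF2 (chr17:76734115-76737374), SRSF4 (chr1:29147743-29181987) and SRSF10 (chr1:23964804-23980927) are on the minus strand. All 10 members (100%) have at least 1 transcript annotated as an NMD target, against 43.6% of the 11312 protein-coding genes tested that matched by symbol, and 8 of 10 (80%) have a retained-intron transcript, against 58.25%. CLK1 has 8 retained-intron transcripts among 15, SRSF5 has 8 among 19, and SRSF7 has 6 NMD transcripts among 12. FPKM was deposited per gene, so that productive, NMD and intron-retaining transcripts are summed in every value below. Exons of SRSF2 overlap those of MFSD11 on the opposite strand and the microRNA MIR636, and the deposited SRSF2 locus runs across MFSD11. The kit used does not mark strand, and SRSF2 values are uncertain for this reason. SRSF1 shares exon positions with a pair of unnamed genes, SRSF4 with a small RNA, and SRSF1 and SRSF10 each have 1 annotated pseudogene.

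The promoter windows of the members are shown for 2 kinds of letters, those bound by heat shock factor and those bound by CREB and ATF proteins. RefSeq windows of GRCh38.p14, from 250 bases before to 50 bases after a start, were given for 9 of the 10 members (12 windows), all but SRSF2. The heat shock trio, GAANNTTC followed by NNGAA, was in 0 member windows, in 0.490% of all 35116 windows and in windows of 3 of 10 heat shock genes (HSP90AA1, HSPA6 and HSPD1). The shorter pair GAANNTTC, which the trio contains, was in 0 member windows, 6.77% of all windows and 7 of 10 heat shock genes, and the pair TTCNNGAA, also within the trio, in 0 member windows, 7.74% of all windows and 3 heat shock genes. All motifs were searched on both strands. The core TGACG of the cyclic AMP response element was in 8 of 12 member windows, against 24.6% of all windows and 31.8% of those of the genes tested. By gene it was in windows of 6 of 9 members, CLK1, SRSF1, SRSF3, SRSF5, SRSF7 and SRSF11, and of 6 of 10 heat shock genes. A gene with several windows has more chances to match, and the same CLK1 site was counted in 2 overlapping windows. The share of genes with a match was not computed over all genes, so the counts by gene have no such share beside them. The full element TGACGTCA, which contains TGACG, was in 0 member windows (1.85% of all), TGATGNAA, the amino acid response element, in 0 (3.62%), and the CCAAT box CCAAT in that of SRSF3 alone (34.6%). These matches describe the letters in the windows and say nothing on binding. The lines below give 12 bases either side of a TGACG match in capitals (CGTCA where the match is on the other strand), 5′ to 3′ on the strand of the gene. By the GENCODE positions above, the printed matches of CLK1, SRSF7, SRSF5 and SRSF11 lie inside the gene, past its outermost start. Those of SRSF3 and SRSF1 lie before it. The windows follow RefSeq starts, which can lie within the GENCODE gene. Further matches in windows of SRSF5 and SRSF11 are not printed, among them a match of SRSF11 before the gene (chr1:70205567-70205595). For comparison, the last line gives the trio of HSPA6, matched on the other strand, in capitals.
CLK1, chr2:200864691-200864719, minus strand: acgcgctcgctgCGTCAtcagtgttttcg
SRSF7, chr2:38751403-38751431, minus strand: agaacaacgagaTGACGcatgcgcaaagc
SRSF3, chr6:36594257-36594285, plus strand: tttgtagccataCGTCAcggcctcttctg
SRSF5, chr14:69767080-69767108, plus strand: cgtccccggaagTGACGtaggacgcgccc
SRSF11, chr1:70221323-70221351, plus strand: tggagccgacgcTGACGcgccctgcgccg
SRSF1, chr17:58007380-58007408, minus strand: tcgtggggagggTGACGtcgcgcgtgcgt
HSPA6, chr1:161524458-161524486, plus strand: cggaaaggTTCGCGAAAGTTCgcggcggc

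CLK1 showed the largest difference of the 10 genes at each time. It stood at 22.7 and 25.7 FPKM in DMSO (first library, then recovered), at 71.1 and 74.5 after 2 h in the same order, at 132 after 6 h and at 103 after 12 h. Every SpiD7 library lay above both DMSO libraries, the replicates of each group lay close together, and the highest value was at 6 h. On the log2 scale CLK1 was higher by 1.59 at 2 h (3.0-fold), 2.44 at 6 h (5.44-fold) and 2.09 at 12 h (4.25-fold). At 2 h the standard error was 0.17 and the 95% confidence interval 1.09 to 2.08. With limma across all genes (2 against 2 libraries) the unadjusted p was 0.00132 and the Benjamini-Hochberg adjusted p 0.800, so that CLK1 did not pass the test, which called 0 of 10 members and 0.0226% of all genes (3 small RNAs). CLK1 was the 1 member of 10 with an unadjusted p under 0.05, against 2.84% of all genes. In a limma fit with the replicate number as a block there were 3 (CLK1, SRSF3 and SRSF7), against 1874 of 13287 genes. An exact permutation test of 2 against 2 libraries cannot give a p below 0.333. The single libraries at 6 h and 12 h were tested only in an added limma fit over all 6 libraries, in which they are assumed to vary like the DMSO and 2 h libraries. It called 0 of 10 members at either time, against 0.294% of all genes at 6 h and 0.339% at 12 h. CLK1 had an unadjusted p of 0.000610 at 6 h (limma adjusted p = 0.165) and 0.00104 at 12 h (limma adjusted p = 0.201). The members with an unadjusted p under 0.05 were 2 at 6 h (CLK1 and SRSF7), against 5.55% of all genes, and 1 at 12 h (CLK1), against 9.19%. Of 13287 genes, 161 had a larger rise over DMSO than CLK1 at 2 h, 163 after 6 h and 243 after 12 h. Larger falls were not counted.

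CLK1 was higher by a like amount whichever libraries were used. The difference at 2 h was 1.64 between the first libraries and 1.53 between the recovered ones. Against the first and the recovered DMSO library alone, CLK1 at 6 h was higher by 2.53 and 2.36, and at 12 h by 2.17 and 2.00. From 2 h to 6 h its level differed by a further 0.86, and from 6 h to 12 h by -0.36. In whole cell populations, a change in RNA per cell cannot be told apart from a change in which cells are present.

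**Figure D1:**
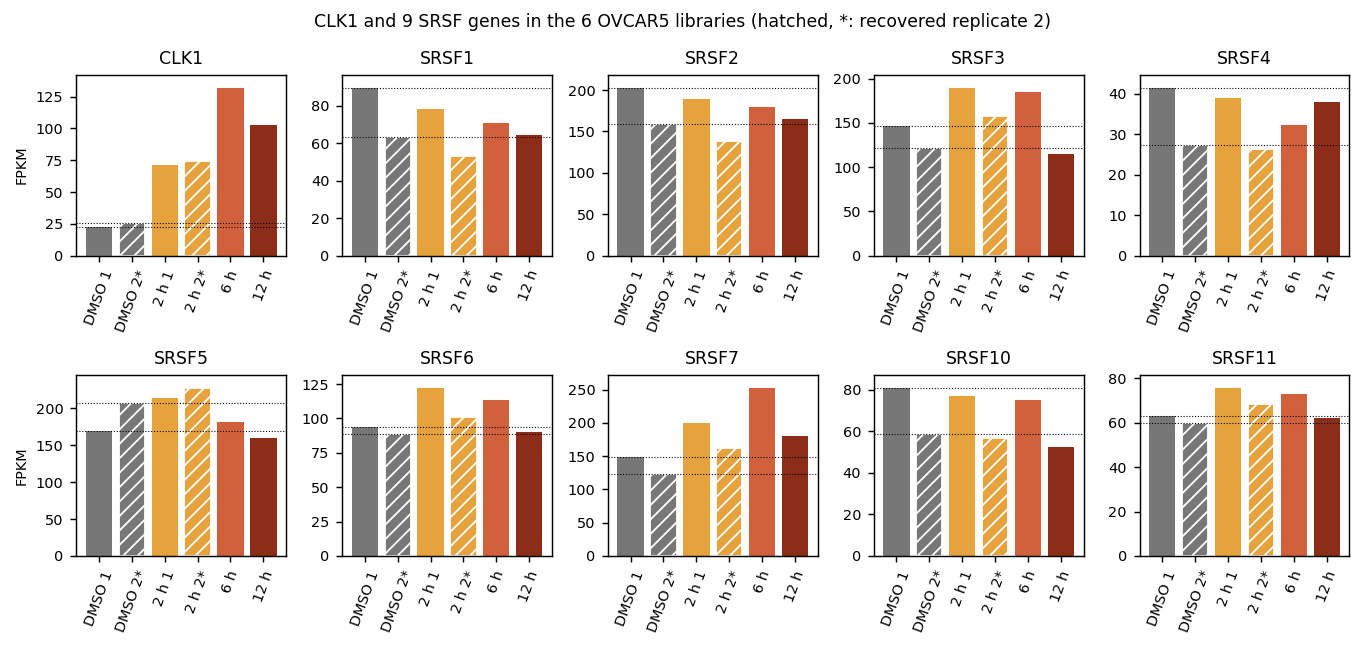
FPKM (vertical axis, from 0, own scale per gene) of CLK1 and the 9 SRSF genes in each of the 6 libraries (horizontal axis, bars coloured by DMSO in grey and SpiD7 at 2 h, 6 h and 12 h). Hatched bars with an asterisk are recovered libraries, and dotted lines mark both DMSO values. CLK1 is above both lines in all 4 SpiD7 libraries, between 71.1 and 132 FPKM.

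The SRSF genes differed far less. None of the 9 was more than 2-fold from the DMSO mean at any time. Counting CLK1, 1 of 10 members was more than 2-fold higher at 2 h, at 6 h and at 12 h, where 2.32%, 5.66% and 6.48% of all genes were, and 0 of 10 were more than 2-fold lower, where 0.662%, 3.10% and 3.76% of all genes were. At 2 h both SpiD7 libraries were above both DMSO libraries for 6 of 10 members (CLK1, SRSF3, SRSF5, SRSF6, SRSF7 and SRSF11), against 13.7% of all genes, and below both for 0 of 10, against 8.10%. SRSF5 no longer separated under median-ratio or upper-quartile scaling, each of which left 5 members. The 6 h library was above both DMSO libraries for 5 of 10 (the same genes without SRSF5), against 31.6% of all genes, and below both for 0, against 29.2%. At 12 h only CLK1 and SRSF7 were above both, 2 of 10 against 30.1% of all genes, and SRSF3, SRSF5 and SRSF10 were below both, 3 of 10 against 35.6%. The count above both at 12 h was 4 under upper-quartile scaling, where SRSF5 was no longer below both. CLK1 and SRSF7 were above both DMSO libraries at all 3 times, as were 8.93% of genes. The 3 times share their DMSO libraries and are not independent of each other.

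The median difference over the 10 members was 0.23 at 2 h, 0.18 after 6 h and -0.06 after 12 h. Over all genes tested it was -0.01, 0.03 and -0.05. Without the first DMSO library the median of the members was 0.32 at 6 h and 0.042 at 12 h, the latter with its sign turned. The summed FPKM of the 9 SRSF genes was 1035 and 910 in DMSO, 1184 and 993 at 2 h, 1162 after 6 h and 929 after 12 h. The recovered 2 h library was thus below the first DMSO library, and the sums of DMSO and 2 h overlapped. Set against this sum, CLK1 amounted to 2.20% and 2.82% in DMSO, 6.01% and 7.50% at 2 h, 11.3% after 6 h and 11.1% after 12 h. The groups did not overlap in this ratio.

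**Figure D2:**
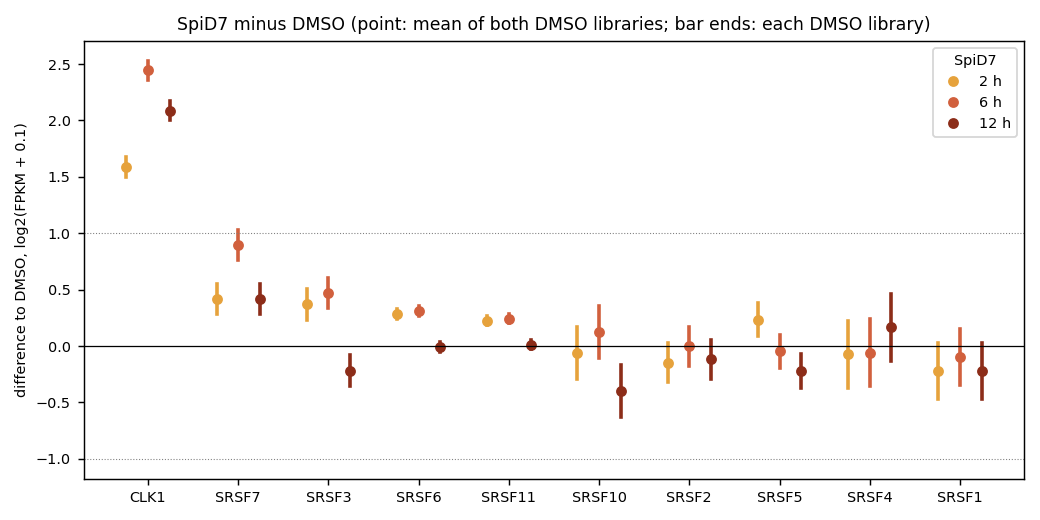
Difference of SpiD7 at 2 h, 6 h and 12 h to DMSO on log2(FPKM + 0.1) (vertical axis) for each member (horizontal axis, ordered by the 6 h value). Points use the mean of both DMSO libraries, bar ends use each DMSO library alone, and dotted lines mark 2-fold. CLK1 lies between 1.59 and 2.44, and the SRSF points lie between -0.40 (SRSF10 at 12 h) and 0.90 (SRSF7 at 6 h).

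SRSF3 and SRSF7 are small, closely related SR proteins that also act as adaptors for mRNA export. SRSF7 stood at 148 and 124 FPKM in DMSO, 200.3 and 163 at 2 h, 252 after 6 h and 181 after 12 h. All 4 SpiD7 libraries were above both DMSO libraries, and the 6 h library was the highest. SRSF7 was higher by 0.42 at 2 h (SE 0.21, 95% confidence interval -0.21 to 1.05, limma adjusted p = 1), by 0.90 after 6 h and by 0.42 after 12 h. In the added fit its unadjusted p at 6 h was 0.0330 (limma adjusted p = 0.811). At 2 h the difference was 0.43 between the first and 0.40 between the recovered libraries. Against the recovered DMSO library alone, SRSF7 passed 2-fold at 6 h (1.03), and against the first it did not (0.77).

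SRSF3 had almost the same DMSO level as SRSF7 and ended elsewhere. It stood at 147 and 122 FPKM in DMSO, 189.6 and 158 at 2 h, 185 after 6 h and 115 after 12 h. The 2 h and 6 h libraries were above both DMSO libraries and the 12 h library below both. On the log2 scale SRSF3 differed by 0.37 at 2 h (SE 0.21, limma adjusted p = 1), 0.47 after 6 h and -0.22 after 12 h. Between the first libraries and between the recovered ones the 2 h difference was 0.37 in each.

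SRSF4, SRSF5 and SRSF6 form a further group of related SR proteins with paired RNA-binding domains. SRSF6 stood at 94.1 and 88.4 FPKM in DMSO, 122 and 101 at 2 h, 113 after 6 h and 90.5 after 12 h. It was above both DMSO libraries at 2 h (0.29) and 6 h (0.31) and between them at 12 h (-0.01). SRSF5, an early described insulin-responsive SR gene of the liver, stood at 169 and 208 FPKM in DMSO, 213 and 227 at 2 h, 181 after 6 h and 160.3 after 12 h. Its 2 h libraries lay above and its 12 h library below both DMSO libraries, the former by a small margin, with differences of 0.23 at 2 h, -0.05 after 6 h and -0.22 after 12 h. SRSF4, which has the longest arginine/serine-rich domain of the group, stood at 41.5 and 27.4 FPKM in DMSO, 39.0 and 26.4 at 2 h, 32.3 after 6 h and 37.9 after 12 h. Its replicates were further apart than any time was from DMSO, and its differences were -0.07, -0.06 and 0.17.

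SRSF1, the prototype of the family, and SRSF2, which stays in the nucleus, were among the members that overlapped DMSO at every time. SRSF1 stood at 89.5 and 63.4 FPKM in DMSO, 78.4 and 53.1 at 2 h, 70.6 after 6 h and 64.5 after 12 h. The corresponding differences were -0.22, -0.09 and -0.22, and at 2 h the standard error was 0.32. SRSF2 stood at 202.5 and 159 FPKM in DMSO, 189 and 139 at 2 h, 179 after 6 h and 165 after 12 h, with differences of -0.15, 0.00 and -0.12. Each was lower at 2 h when like libraries were compared, with differences of -0.19 in the first and -0.26 in the recovered libraries for SRSF1 and of -0.10 and -0.20 for SRSF2. With the first DMSO library or the recovered 2 h library left out, both were instead slightly higher at 2 h, by at most 0.074.

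SRSF10, a splicing repressor that is activated by dephosphorylation after heat shock, stood at 80.6 and 58.5 FPKM in DMSO, 76.8 and 56.6 at 2 h, 75.0 after 6 h and 52.2 after 12 h. It overlapped DMSO at 2 h (-0.06) and 6 h (0.13) and was below both DMSO libraries at 12 h (-0.40). That difference ranged from -0.63 against the first DMSO library to -0.16 against the recovered one, and against the latter SRSF5 was lower (-0.37). SRSF11, an SR-related protein that binds U2AF, stood at 63.2 and 59.9 FPKM in DMSO, 75.6 and 68.5 at 2 h, 72.8 after 6 h and 62.1 after 12 h. It lay above both DMSO libraries at 2 h (0.22) and 6 h (0.24) and between them at 12 h (0.01). Limma gave an adjusted p of 1 for each of the 9 SRSF genes at 2 h.

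In DMSO the levels ran from SRSF5 (mean 188 FPKM) and SRSF2 (181) through SRSF7 (136) and SRSF3 (134) to SRSF6 (91.2), SRSF1 (76.5), SRSF10 (69.6), SRSF11 (61.6), SRSF4 (34.5) and CLK1 (24.2). Neighbours in this order overlapped between SRSF5 and SRSF2, between SRSF7 and SRSF3, and along SRSF6, SRSF1, SRSF10 and SRSF11. They were separate between SRSF2 and SRSF7, SRSF3 and SRSF6, SRSF11 and SRSF4, and SRSF4 and CLK1. At 6 h CLK1 (132 FPKM) exceeded SRSF1, SRSF4, SRSF6, SRSF10 and SRSF11 in the same library.

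Profiles were compared by the Euclidean distance of centred log2(FPKM + 0.1) over the 6 libraries, as a description, since all genes share these libraries. The closest members were SRSF6 and SRSF11 (0.127) and SRSF1 and SRSF2 (0.170). Outside the members, the genes nearest to CLK1 were NNAT (0.361), FRAT2 (0.363), KBTBD8 (0.406), ZSCAN12P1 (0.411) and BAMBI (0.460), all at FPKM values below that of CLK1 in every library. Nearest to the mean of the 9 SRSF genes were ATXN2L (0.0506), COX15 (0.0582), VPS35 (0.0680), FAM96A (0.0838) and DERA (0.0844).

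Of 16 genes for SR protein kinases, phosphatases and import, 3 were above both DMSO libraries at 2 h, 6 after 6 h and 6 after 12 h, and 1, 5 and 4 were below both. The shares over all genes tested were 13.7%, 31.6% and 30.1% above and 8.10%, 29.2% and 35.6% below. Median differences of the 16 were 0.03, 0.13 and 0.12, and limma called 0 at 2 h. An unadjusted p under 0.05 was found for 1 (DYRK3), against 2.84% of all genes. DYRK3, a kinase that dissolves condensates including nuclear speckles, stood at 4.43 and 3.58 FPKM in DMSO, 7.28 and 8.84 at 2 h, 7.68 after 6 h and 8.64 after 12 h, with differences of 0.99, 0.93 and 1.10. DYRK1B had the next largest difference at 12 h (0.84). The lowest were PRPF4B, a kinase of the spliceosome (-0.08, -0.39 and -0.75), and PPP1CB, a catalytic subunit of protein phosphatase 1 (-0.45 at 12 h).

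The other CLK genes, chosen here after their values were seen, were expressed below CLK1 and did not match it in size. CLK4, the closest relative of CLK1, stood at 5.86 and 6.71 FPKM in DMSO, 8.38 and 10.2 at 2 h, 9.94 after 6 h and 8.65 after 12 h, above both DMSO libraries throughout (0.55, 0.66 and 0.46). CLK2 was at 12.1 and 11.1 FPKM in DMSO and between 9.14 and 11.4 after SpiD7, with differences of -0.14, -0.34 and -0.19. CLK3 was at 13.1 and 16.0 FPKM in DMSO and between 14.9 and 18.1 after SpiD7, with differences of 0.10, 0.19 and 0.32. SRPK1 and SRPK2, the cytoplasmic SR protein kinases, differed by -0.06 and 0.03 at 2 h, 0.10 and -0.37 at 6 h, and -0.12 and 0.12 at 12 h. The difference between CLK1 and these kinases was not tested.

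Of 22 other SR and SR-related genes, 20 passed the filter, with SRSF12 and U2AF1 below it. Above both DMSO libraries were 6, 6 and 5 of the 20 at 2 h, 6 h and 12 h, and below both were 3, 8 and 11. Over all genes tested the shares were 13.7%, 31.6% and 30.1% above and 8.10%, 29.2% and 35.6% below. Medians of the 20 were 0.06, 0.02 and -0.08, and limma called 0 at 2 h. With an unadjusted p under 0.05 there were 3 (RSRC2, TRA2A and TRA2B), all higher at 2 h, against 2.84% of all genes. RSRC2, an arginine/serine-rich coiled-coil protein, stood at 30.2 and 28.4 FPKM in DMSO, 64.8 and 55.4 at 2 h, 74.3 after 6 h and 73.4 after 12 h, with differences of 1.03, 1.34 and 1.32. TRA2B, a splicing activator that works with SR proteins, stood at 142 and 132 FPKM in DMSO, 206 and 188 at 2 h, 271 after 6 h and 259 after 12 h, with differences of 0.52, 0.98 and 0.92. Its relative TRA2A, named after its values were seen, differed by 0.87, 0.96 and 0.68. Each of these 3 genes lay above both DMSO libraries at every time, as CLK1, SRSF7 and 8.93% of all genes did. RSRC1 and PNN were the lowest at 12 h (-0.48 each).

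**Figure D3:**
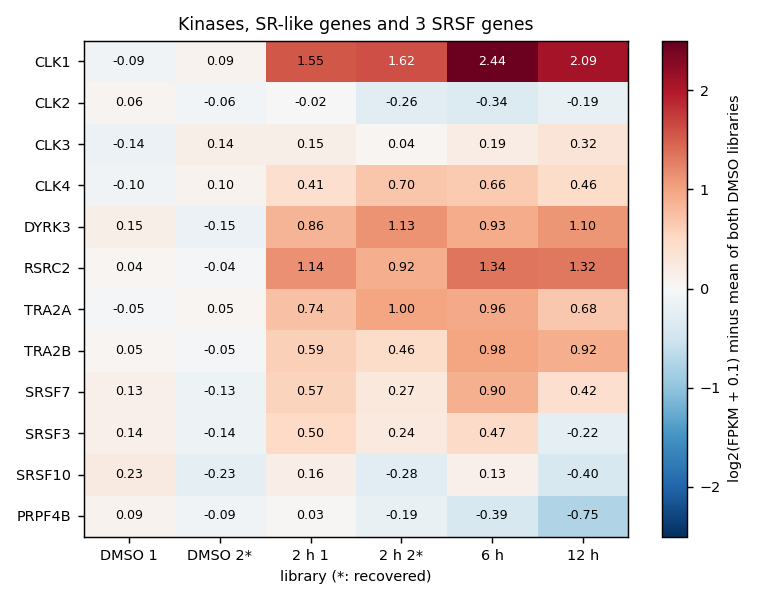
Log2(FPKM + 0.1) minus the mean of both DMSO libraries, printed and coloured per library (columns, asterisk for recovered libraries) for CLK1 to CLK4, DYRK3, RSRC2, TRA2A, TRA2B, SRSF7, SRSF3, SRSF10 and PRPF4B (rows). CLK1 reaches 2.44 at 6 h, RSRC2 1.34, and PRPF4B is lowest at 12 h (-0.75).

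Genes of the general splicing machinery stayed within 2-fold of DMSO at every time. Of 29 hnRNP and related regulators, which often oppose SR proteins, 3, 10 and 7 were above both DMSO libraries at 2 h, 6 h and 12 h and 1, 5 and 11 below both, with medians of 0.00, 0.18 and -0.11. HNRNPH1 (0.41) and RBM39 (0.39) were highest and HNRNPR (-0.66) and MBNL1 (-0.59) lowest at 12 h, and RBM39 was the 1 gene with an unadjusted p under 0.05 at 2 h. Of 28 core spliceosome subunits tested (29 listed, SF3B6 not found by that symbol), 2, 9 and 6 were above and 0, 3 and 7 below both, with medians of -0.05, 0.18 and -0.01 and none more than 2-fold away. SF3B4 (0.50) and SF3A2 (0.44) were highest and DDX23 (-0.45) and PRPF8 (-0.44) lowest at 12 h. Limma called 0 genes of either list at 2 h, with 0 spliceosome subunits at an unadjusted p under 0.05. Of all genes tested, 2.84% had such a p. At 2 h, 6 h and 12 h, 13.7%, 31.6% and 30.1% of all genes were above both DMSO libraries, and 8.10%, 29.2% and 35.6% below both.

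The 10 NMD factors are given because every member has a transcript of that kind. Above both DMSO libraries were 1, 6 and 4 of them and below both 1, 1 and 1, with medians of 0.09, 0.23 and 0.15. At 2 h limma called 0, and 0 had an unadjusted p under 0.05, against 2.84% of all genes. Over all genes tested the shares at 2 h, 6 h and 12 h were 13.7%, 31.6% and 30.1% above both and 8.10%, 29.2% and 35.6% below both. SMG6, the endonuclease of the pathway, stood at 14.8 and 21.0 FPKM in DMSO, 12.9 and 14.5 at 2 h, 10.7 after 6 h and 8.40 after 12 h, below both DMSO libraries throughout, with a difference of -1.06 at 12 h. The next lowest of the 10 at 12 h was close to DMSO, while SMG8 (0.67) was the highest.

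**Figure D4:**
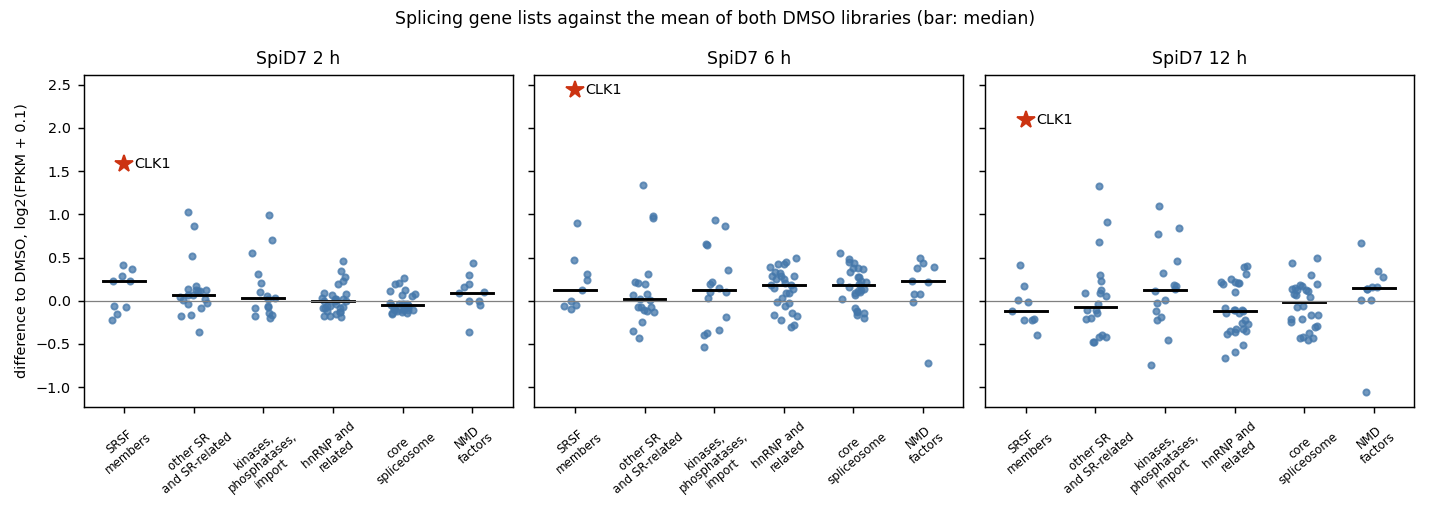
Difference to the mean of both DMSO libraries on log2(FPKM + 0.1) (vertical axis) for each tested gene of the SRSF members and 5 further splicing lists (horizontal axis) at 2 h, 6 h and 12 h, with bars for medians and a star for CLK1. CLK1 (1.59, 2.44 and 2.09) lies above every gene of these lists at each time.

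Heat shock genes, set beside the members because heat stress is the response the members are listed for, differed far more. Of 10, 6 were more than 2-fold higher at 2 h, 9 after 6 h and 10 after 12 h, against 2.32%, 5.66% and 6.48% of all genes. Medians of the 10 were 1.62, 3.04 and 3.47. At 2 h limma called 0 of the 10, and 6 had an unadjusted p under 0.05, against 2.84% of all genes. HSPA6, an inducible HSP70 gene, was at 0.317 and 0.0965 FPKM in DMSO and at 77.5, 93.6, 620 and 1030 FPKM in the 2 h, 6 h and 12 h libraries, and HSPA1B differed by 5.31 at 12 h. At 2 h the difference of CLK1 (1.59) was near the median of these 10 genes, and at 6 h and 12 h it was below it.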

How the data were processed

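RNA of 6 libraries of OVCAR5 cells was prepared with a TruSeq V2 kit and read as single reads. Per the study's methods and processing notes, the authors trimmed reads with Trim Galore, aligned them with TopHat2 2.0.8 and estimated expression with Cufflinks and Cuffdiff 2.1.1. The methods name a mouse build. The deposited column definitions name hg38, and the loci are human. The deposited table pairs FPKM values of vehicle and SpiD7 in 4 comparisons, each scaled on its own by Cuffdiff, and holds fold changes and p-values of the authors, which were not used. Scales were matched through the first DMSO library (factors 0.972 and 0.994). Columns named for replicate 2 were read as means of a group. The share of the first library (0.526 for DMSO from 811 rows, 0.509 for 2 h from 964 rows) was subtracted, an assumption the methods do not describe. A remainder under 0.2% of the mean was set to 0. The count of sample columns left out was 0. A row that names no gene (1 of 33086) was dropped, rows of a symbol were summed, and a gene was tested where its mean FPKM reached 1.

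Differences used log2(FPKM + 0.1), which understates those of low genes. For 2 h against DMSO, limma 3.58.1 was run under R 4.3.3 (lmFit, eBayes, Benjamini-Hochberg; a call needed an adjusted p under 0.05 and more than 2-fold). The 6 h and 12 h values, of 1 library each, were reported relative to the DMSO mean with no test, except in a limma fit over all 6 libraries that was added after the data were seen. Total depth is unknown. Depths of 0.769 to 1.11 relative to the first DMSO library are the inverse of the most frequent FPKM ratio to that library. They assume that this ratio marks genes with equal read counts. Tested on simulated data for the 2 h comparison (13287 genes, 200 changed 4-fold), limma called 0 changed genes when each gene had its own spread and 200 when every gene had the median spread (213 calls). Alternatives were a pseudocount of 1, no filter, other scalings, the highest row of a symbol, an intensity trend, the replicate number as a block and leaving out each library. Members and gene lists were chosen with earlier results of these data known. Genes named from a list are the 2 highest and 2 lowest at 12 h, or were named after their values were seen. A gene that this rule would name is not reported here. Positions are from GENCODE 29 and promoter windows from RefSeq (GRCh38.p14), with Python 3.11.15.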

Additional observations from a re-analysis of the deposited data

Results flagged for a closer look

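SRSF3 and SRSF5 lay on opposite sides of the DMSO libraries at different times. The differences between times were tested in the added limma fit over all 6 libraries, in which the lone libraries are assumed to vary like the others, and none passed. For SRSF3 the difference to DMSO at 12 h minus that at 2 h was -0.59 on the log2 scale (limma unadjusted p = 0.0943, adjusted p = 0.814), and minus that at 6 h it was -0.69 (limma unadjusted p = 0.0912, adjusted p = 1), with the earlier libraries above both DMSO libraries and the 12 h library below both. For SRSF5 the value at 12 h minus that at 2 h was -0.46 (limma unadjusted p = 0.135, adjusted p = 0.818). Under upper-quartile scaling the 12 h library of SRSF5 was no longer below both DMSO libraries, and under median-ratio or upper-quartile scaling its 2 h libraries were no longer above both. All times share the same DMSO libraries.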

How the results depend on the processing

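The 10 members gave 0 limma calls under every alternative run. The adjusted p of CLK1 at 2 h ranged from 0.329 to 1. Where an alternative moved the difference of a single member, its sign changed in 8 of 90 values at 2 h (4 members), 7 of 70 at 6 h (5 members: SRSF1, SRSF2, SRSF4, SRSF5 and SRSF10) and 8 of 70 at 12 h (5 members: SRSF1, SRSF2, SRSF4, SRSF6 and SRSF11). The 2 h difference of SRSF6 was 0.37 with the first libraries only, an alternative added after the data were seen, as was the fit over all 6 libraries. With a replicate left out, the 2 h difference ranged from -0.51 to 0.057 for SRSF1, from -0.37 to 0.074 for SRSF2, from -0.37 to 0.22 for SRSF4 and from -0.29 to 0.17 for SRSF10. These 4 were above 0 without the first DMSO library (0.02, 0.03, 0.22 and 0.17) and without the recovered 2 h library (0.057, 0.074, 0.21 and 0.16). CLK1 ranged from 1.50 to 1.67. With a DMSO library left out, the 6 h difference ranged from -0.34 to 0.15 for SRSF1, -0.18 to 0.17 for SRSF2, -0.36 to 0.24 for SRSF4, -0.20 to 0.10 for SRSF5 and -0.10 to 0.36 for SRSF10. At 12 h it ranged from -0.47 to 0.023 for SRSF1, -0.29 to 0.056 for SRSF2, -0.13 to 0.46 for SRSF4, -0.056 to 0.034 for SRSF6 and -0.025 to 0.050 for SRSF11. The median over the members ranged from 0.15 to 0.32 at 6 h and from -0.10 to 0.042 at 12 h. Leaving out the first DMSO library gave 2 members more than 2-fold higher at 6 h (CLK1 and SRSF7), 9 above the remaining DMSO library at 6 h and 7 at 12 h, with 1 below at 6 h. Leaving out the recovered DMSO library gave 4 members below at 2 h, 4 at 6 h and 8 at 12 h, as did the first libraries only. Without the first 2 h library 4 were below at 2 h. With 1 library in an arm, a gene lies more easily above or below it. Upper-quartile scaling gave 4 members above both DMSO libraries at 12 h, and both scalings gave 5 in place of 6 at 2 h. With the replicate number as a block, limma called 0 genes (1874 at an unadjusted p under 0.05) against 3 without it, and the adjusted p of CLK1 was 0.329. In that fit 3 of 10 members had an unadjusted p under 0.05 (CLK1, SRSF3 and SRSF7), against 1874 of 13287 genes. The 2 h standard error of SRSF1 was 0.065 with the block and 0.32 without it. The correlation of same-numbered deviations was 0.369. The labels give the pairs only a shared number, but both recovered libraries were higher than the first ones in MIR6723, PECAM1 and CDH1. What else the recovered libraries share was not tested, and the main fit leaves the pairing out. The scalings moved the median of all genes to between -0.05 and 0.00. Genes called at 2 h without one library numbered 12 and 20 without the first and recovered DMSO library, and 0 (202 at an unadjusted p under 0.05) and 21 without the first and recovered 2 h library, where the lone library is assumed to vary like the other group. The trend fit called 5, a pseudocount of 1 or upper-quartile scaling 1, and no filter 0, with 1198 genes at an unadjusted p under 0.05. Causes were not tested. With no counts deposited, counting error cannot be given.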
